A study of Saccharomyces cerevisiae with 12 samples.

Results

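Broad AcH4-poor domains are stretches of the yeast genome in which acetylated histone H4 (AcH4) stayed far below the array median over many neighbouring tiling probes. For each nuclear probe the log2 ratio of the AcH4 immunoprecipitate (IP) over input was set to a median of 0 on each array, averaged over the 3 arrays of each strain and then over the 4 strains. A domain was a run of 8 or more consecutive probes of one chromosome whose average was under -1.0 at every probe. Members were thus chosen by the AcH4 ratios of all 12 arrays, and their low levels are not a finding. The rule gave 326 domains with 3830 of the 41480 nuclear probes, or 9.23%.

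Acetylation of the H4 tail loosens chromatin and is highest at the promoters and 5′ ends of transcribed genes. Over gene bodies it is kept low by the Set2-Rpd3S pathway. Set2 methylates histone H3 lysine 36 behind elongating RNA polymerase II, and the Rpd3S histone deacetylase, of which Rco1 is a subunit found in no other complex, removes acetyl groups there. RSC is an essential chromatin remodeler. Its alternative subunits Rsc1 and Rsc2 each carry tandem bromodomains, the modules that bind acetylated lysines.

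The arrays compared wild type (BY4741) with the single deletion strains *rsc1*Δ, *rsc2*Δ and *rco1*Δ, each as 3 biological repeats grown in YPD, a rich glucose medium. BY4741 is MATa and carries deletions of HIS3, LEU2, MET15 and URA3, and *rco1*Δ was made by replacing the gene with a KANMX6 cassette in that background. How many isolates of each deletion were used, and how the *rsc1*Δ and *rsc2*Δ strains were made, was not given in the sources used here. On every array Cy5 held DNA pulled down with an antibody against hyperacetylated H4 and Cy3 held input DNA of the same culture, so no wild type DNA served as a common reference. The input signal of each mutant was lost over 7 to 10 neighbouring probes, on chromosome 7 in *rsc1*Δ, chromosome 12 in *rsc2*Δ and chromosome 13 in *rco1*Δ, and none of these probes lay in a domain.

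The 12 arrays were not alike in spread. The median absolute deviation of the log2 ratios was 1.08 to 1.14 on the wild type arrays, 1.23 to 1.29 on the RSC mutant arrays and 0.53 to 0.69 on the *rco1*Δ arrays. Scanner headers placed the arrays on 3 slides, and 4 slide positions were each named by 2 arrays of different strains from different scans. *rco1*Δ replicate 2 shared a position with wild type replicate 1, *rco1*Δ replicate 1 with *rsc2*Δ replicate 2, *rco1*Δ replicate 3 with *rsc1*Δ replicate 3, and wild type replicate 3 with *rsc1*Δ replicate 2. Whether slides were used again or headers are wrong was not given in the sources used here, and the part of this in the results was not tested. Slide numbers below are those of the headers. In the domains the input was well above background at 75.1% to 99.9% of probes, but the IP at only 31.9% to 92.6%. The IP of 275 domain probes (7.18%) was not well above background on any wild type array, so their wild type level is an upper bound. The same held for 872 domain probes (22.8%) in *rsc1*Δ, 296 in *rsc2*Δ and 225 in *rco1*Δ. These counts leave out probes that passed on any of the 3 arrays. The IP was well above background on all 3 arrays at 1829 domain probes in wild type and 1716 in *rsc1*Δ. In *rsc2*Δ this held at 1059 and in *rco1*Δ at 2656, so *rsc2*Δ had the fewest such probes. Array number and these dim spots limit the precision.

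The domains ranged from 1426 to 10513 bp, with a median of 2620.5 bp and 10 probes. Their probes started a median of 251.5 bp apart. Short domains were the most frequent, with 134 of 8 to 9 probes, 93 of 10 to 12, 46 of 13 to 15 and 53 of 16 or more. In all, 11493 probes (27.7%) were under -1.0 and fell into 3351 runs, of which 1167 were single probes. The domains held 33.3% of these probes. The share of a chromosome's probes in domains ran from 6.48% on chromosome 16 to 14.0% on chromosome 6. Neighbouring domains of a chromosome were separated by a median of 81.5 probes, but 10 pairs were split by 1 probe only. In 6 domains a gap of over 1000 bp without probes lay between members. Among them was the widest domain (10513 bp), which had 10 probes and a gap of 8333 bp.

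At the edge of the rule, 78 domains had 8 probes and 94 runs missed it with 7. The probes of the former had a mean log2 ratio of -2.40 for wild type, -2.54 for *rsc1*Δ, -2.63 for *rsc2*Δ and -0.91 for *rco1*Δ. Those of the latter had -2.28, -2.45, -2.51 and -0.85. Just inside the level, 97 domain probes had an average between -1.1 and -1.0, and 825 nuclear probes outside domains had one between -1.0 and -0.9. The averages of domain probes ran from -4.82 to just under the limit. These levels chose the members and are given as a description.

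The same rule applied to one array at a time gave 307, 396 and 422 domains on the wild type arrays, 453, 344 and 390 for *rsc1*Δ, 341, 459 and 377 for *rsc2*Δ, and 107, 123 and 101 for *rco1*Δ. The *rco1*Δ arrays lay apart from all others. The strain means gave 395 domains in wild type with 4718 probes and 120 in *rco1*Δ with 1298. The wild type set held 96.7% of the 3830 members, which made up 78.5% of it. The *rco1*Δ set held 20.5% of them, and they were 60.5% of its probes. The counts depended on the spread of the arrays. With all arrays brought to a common spread, the strain means gave 378 domains in wild type and 299 in *rco1*Δ, and the counts of single arrays overlapped (305, 372 and 391 against 298, 317 and 187). The *rco1*Δ set at common spread still shared only 39.9% of the members.

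The first comparison asked how the domains changed when Rpd3S lost Rco1. Most domains rose in *rco1*Δ, the strain whose arrays had the narrowest spread. The mean log2 ratio over domain probes was -2.46, -2.68 and -2.78 in the wild type arrays and -0.87, -0.90 and -1.04 in the *rco1*Δ arrays. The strain means were -2.64 ± 0.17 and -0.94 ± 0.09 (SD, n = 3 each), a difference of 1.70. All *rco1*Δ arrays lay above all wild type arrays. With 3 arrays a side the exact permutation test cannot go below p = 0.1, so array means are described by whether the groups overlap. In *rco1*Δ 36.8%, 39.6% and 48.7% of domain probes were under -1 on the single arrays, against 95.7% to 98.7% in wild type.

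**Figure D1:**
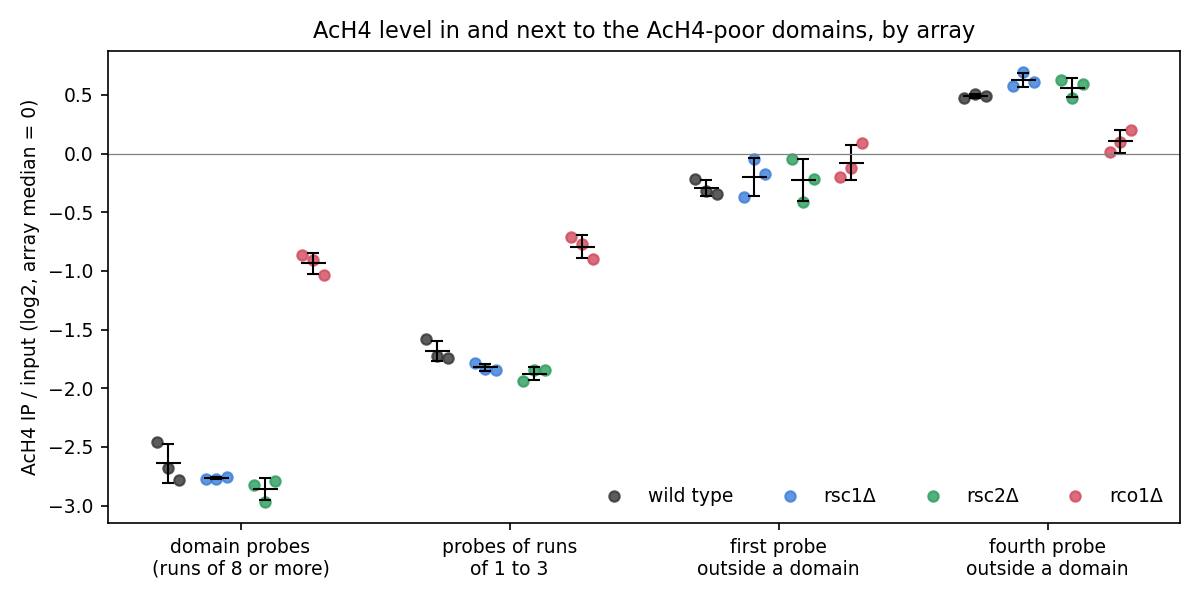
Log2 AcH4 IP over input on each array (points) with the strain mean and SD of 3 arrays (bars), for domain probes, probes of runs of 1 to 3 low probes, and the first probe and the fourth outside a domain. In domains the *rco1*Δ arrays sit between -1.04 and -0.87 and every other array is at -2.46 or lower, whereas at the fourth probe outside the *rco1*Δ arrays are the lowest.

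Probe by probe, limma (adjusted p under 0.05, Benjamini-Hochberg over all nuclear probes) called 2997 of the 3830 domain probes (78.3%) higher in *rco1*Δ, against 26.0% of all nuclear probes. It called 83 domain probes (2.17%) lower, against 28.1% of all. In either direction 54.1% of nuclear probes were called. The split of 2997 higher to 83 lower became 1916 to 500 at a common spread of arrays and 1108 to 308 in the authors' table. For these settings no shares of all nuclear probes are given, so the splits cannot be set against a background. The median difference was 1.86 over domain probes and -0.24 over all nuclear probes. In 310 domains at least 1 probe was called higher, in 283 at least as many were as were not, and in 106 domains every probe was. Taken as domain means, 301 of 326 domains (92.3%) were higher in *rco1*Δ without overlap between the arrays, against 31.2% of 4141 windows of 10 probes tiled along the nuclear genome. Another 12 domains (3.68%) were lower without overlap, against 42.7% of windows.

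Since the rule had used the *rco1*Δ and wild type arrays, the domains were also drawn from *rsc1*Δ and *rsc2*Δ alone. That gave 403 domains with 4695 probes, of which 3660 were members of the first set (78.0% of these, 95.6% of the members). Over them the mean was -2.5 ± 0.16 in wild type and -0.74 ± 0.09 in *rco1*Δ (SD, n = 3), a difference of 1.75 without overlap. Limma called 3804 of these probes (81.0%) higher and 42 lower.

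The rise was seen on both slides that carried both strains. It was 1.66 on slide 1 (1 *rco1*Δ array against 2 of wild type) and 1.91 on slide 2 (1 against 1). The latter pair was also the only one within a scan day, and no single scan held both strains. With the scan day as a block 2351 domain probes were called higher, a count without a share of all nuclear probes beside it. The size of the rise depended on the processing. With other background corrections it was 0.88 (plain subtraction of the local background, where the groups overlapped) and 0.87 (normexp). It was 0.82 at a common spread of arrays, and 0.53 in the authors' value table, in which both background and spread differ.

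Both channels moved in the domains. The mean log2 IP signal, relative to the array median, was -2.51, -2.70 and -2.74 in wild type and -1.20, -1.03 and -1.15 in *rco1*Δ. The input signal was -0.16, -0.14 and -0.07 in wild type and -0.41, -0.20 and -0.23 in *rco1*Δ. The IP was thus higher by 1.52 and the input lower by 0.16 (difference -0.16), both without overlap. At the 818 domain probes whose IP and input both stood well above background on the 12 arrays, the difference in the ratio was 1.37. Their median input was 0.06 higher in *rco1*Δ, with overlap, whereas over all domain probes the median input was lower (difference -0.25). The latter was -0.61, -0.23 and -0.23 on the *rco1*Δ arrays, and without *rco1*Δ replicate 1 the difference was -0.12.

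The second question was how the change ran from the edge of a domain to its centre. In wild type AcH4 fell steeply inward, and in *rco1*Δ it was nearly flat. The slopes are a description, since the rule used these levels and ended a run where the average reached -1.0. Wild type, *rsc1*Δ and *rsc2*Δ, with like levels, weighed most in that average. At the first and last probe of a domain the mean was -1.93 ± 0.12 in wild type and -0.76 ± 0.08 in *rco1*Δ, at the third step inward -2.77 ± 0.16 and -0.99 ± 0.10, and at the sixth step -3.08 ± 0.20 and -1.09 ± 0.08 (SD, n = 3). The difference between the strains grew from 1.17 at the edge to 1.53, 1.71, 1.79 and 1.96 over the next 4 steps, was 1.99, 1.99 and 2.0 at steps 5 to 7, and was 2.06, 2.18, 2.42 and 2.58 at steps 8 to 11. Only 171 probes lay 6 steps in 47 lay 9 steps in and 20 lay 11 steps in, so the inner part of the profile rests on the wider domains.

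Probes at least 4 steps from the edge were lower than edge probes by 1.03, 1.14 and 1.19 on the wild type arrays (centre minus edge -1.03, -1.14 and -1.19). On the *rco1*Δ arrays the same gradient was -0.26, -0.26 and -0.28. The gradients differed by 0.86 without overlap. In domains drawn from the RSC mutants alone they differed by 0.99. Levels of these mutants were like those of wild type, so the redraw does not remove the part of the rule. The difference kept its sign and the separation of arrays after normexp, with plain subtraction, in the authors' table and at common spread, where it lay between 0.25 and 0.58.

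Outside the domains the direction turned within a few probes. At the first probe outside, wild type was at -0.29 ± 0.07 and *rco1*Δ at -0.08 ± 0.15, a difference of 0.22. At the second probe outside the strains overlapped, with strain means of 0.047 and -0.0042. At the fourth probe, the crest of the flank in wild type, the mean was 0.49 ± 0.02 in wild type and 0.10 ± 0.10 in *rco1*Δ. The difference was -0.39 without overlap, beside a median of -0.24 over all nuclear probes. No flank value at a common spread of arrays is given here. The input moved as well, from 0.40 higher in *rco1*Δ at the first probe outside to 0.21 lower (difference -0.21) at the edge probe. Its part in the step between them was not tested.

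**Figure D2:**
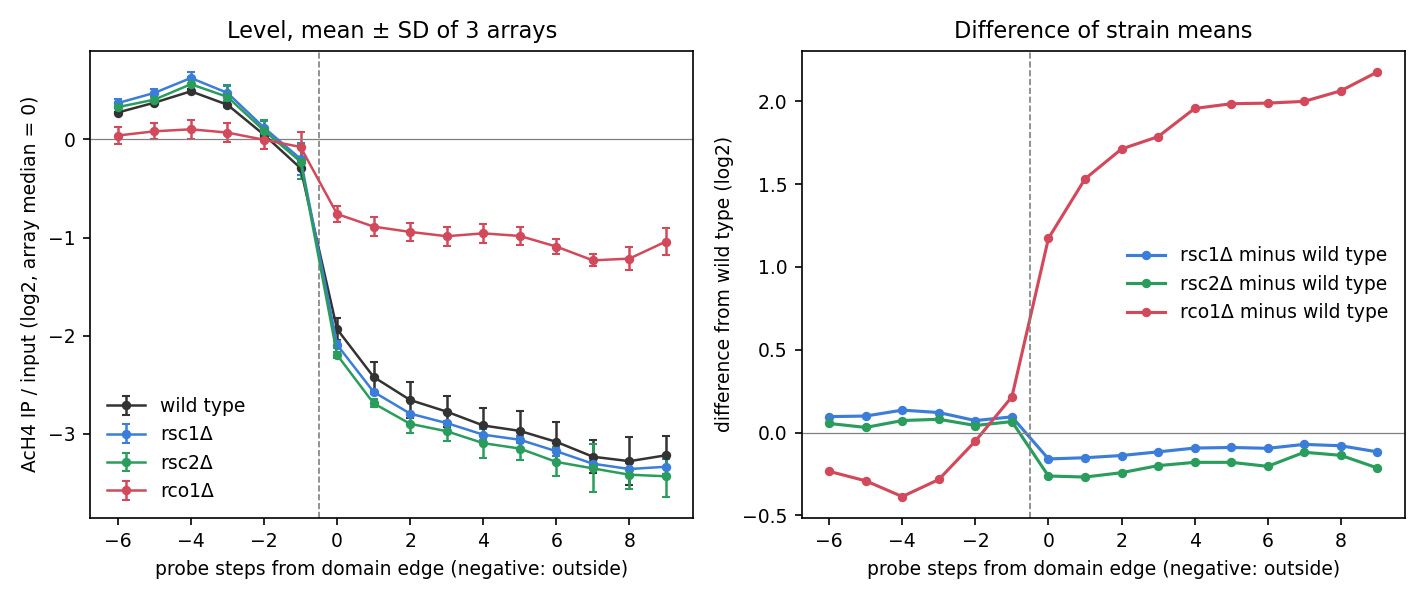
Left, mean log2 AcH4 IP over input with SD of 3 arrays against the number of probe steps from the domain edge (0 is the first or last probe, negative values lie outside). Right, the difference of each mutant from wild type. Over the steps drawn, 0 to 9 inside, wild type falls from -1.93 at the edge to -3.28 at step 8, *rco1*Δ lies between -1.23 and -0.76, and the RSC mutants follow wild type.

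Width was the third axis. Levels by width are a description, since the rule drew the runs from these values and edge probes make up more of a narrow domain. Wider domains were lower in wild type, with means over domains of -2.43 ± 0.16 for 8 to 9 probes, -2.57 ± 0.16 for 10 to 12, -2.58 ± 0.16 for 13 to 15 and -2.91 ± 0.18 for 16 or more (SD over arrays, n = 3). In *rco1*Δ the same classes were at -0.88 ± 0.08, -0.89 ± 0.12, -0.83 ± 0.10 and -1.14 ± 0.08. The mean difference between the strains was 1.55, 1.69, 1.76 and 1.77 in order of width, and the arrays of each class were apart. Across domains the medians were 1.71, 1.71, 1.92 and 1.98.

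Wide minus narrow (16 or more against 8 to 9 probes) was -0.46, -0.45 and -0.52 on the wild type arrays and -0.28, -0.23 and -0.25 on the *rco1*Δ arrays. The arrays were apart and the strains differed by 0.22, and by 0.36 without overlap in domains drawn from the RSC mutants alone. The sign of the 0.22 depended on the processing. It turned to -0.014 with plain background subtraction, -0.0095 at a common spread and -0.11 in the authors' table. At equal steps from the edge the classes were close to each other. At the third step inward the difference from wild type was 1.72, 1.85, 1.88 and 1.76 in order of width, and at the fourth 1.91, 1.98, 2.04 and 1.88. At the edge probe itself the widest class changed by 0.98, against 1.19 to 1.23 in the other 3.

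**Figure D3:**
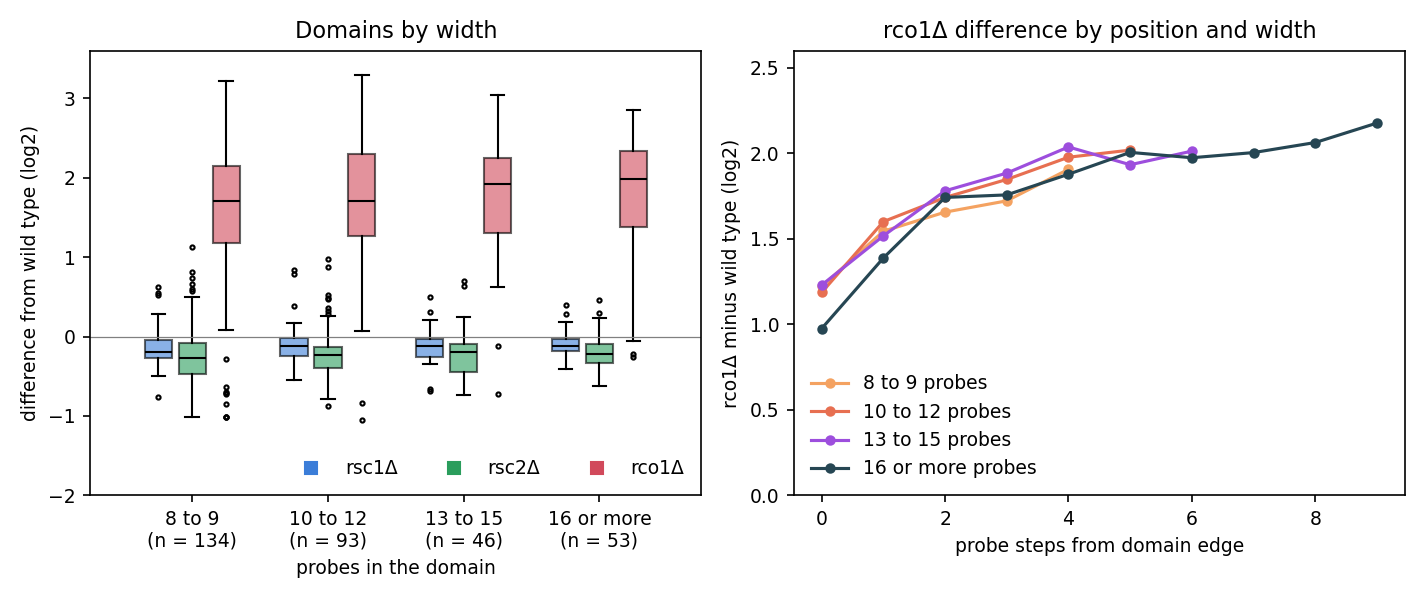
Left, difference of each mutant from wild type for single domains (box: quartiles with the median, whiskers to 1.5 box lengths, small circles beyond) in 4 width classes. Right, the *rco1*Δ difference by probe steps from the edge within each class. The *rco1*Δ medians run from 1.71 to 1.98, the RSC medians lie between -0.27 and -0.12, and the position curves of the 4 classes lie close together.

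Domain probes also changed more than low probes that stood alone. In runs of 1 to 3 probes the mean was -1.58, -1.73 and -1.74 in wild type and -0.71, -0.77 and -0.90 in *rco1*Δ, a difference of 0.89. Because short runs were less low to begin with, probes of the same average level were compared. Among probes drawn from *rsc1*Δ and *rsc2*Δ alone with an average between -2.5 and -2.0, 790 domain probes went from -2.11 in wild type to -0.54 in *rco1*Δ, and 674 probes of short runs from -1.99 to -0.82. The differences were 1.57 and 1.17. Between -2.0 and -1.5 they were 1.17 and 0.85, and between -1.5 and -1.0 they were 0.80 and 0.55. Averaged over the 3 levels the domain probes gained 0.32 more, without overlap, and 0.52 more where all 4 strains set the levels. The match was not exact, since domain probes were the lower in wild type at each of these levels, at most at the middle one with -1.64 against -1.51.

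The 6 domains with most probes all rose in *rco1*Δ. The one with most probes, 38 over 9331 bp at chr12:351612-360942 (sacCer1), was at -3.30, -3.54 and -3.75 in wild type and at -0.96, -0.77 and -0.86 in *rco1*Δ, a difference of 2.66. All of its 38 probes were called higher. The domain at chr8:303125-312631 (36 probes) went from -3.21, -3.36 and -3.60 to -1.35, -1.27 and -1.46, and 31 of its probes were called. That at chr2:517570-525775 (31 probes) went from -2.88, -3.03 and -3.42 to -0.55, -0.54 and -0.82, with all probes called.

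Both domains of 27 probes reached or nearly reached the array median. The domain at chr2:51934-58364 was at -2.56, -2.71 and -2.96 in wild type and at 0.05, 0.28 and 0.0035 in *rco1*Δ, a difference of 2.86. The domain at chr12:55281-62186 was at -2.79, -3.10 and -3.18 in wild type and at -0.23, -0.19 and -0.25 in *rco1*Δ. The sixth, at chr7:132151-139516, was the wider of 2 domains with 26 probes. It went from -3.23, -2.97 and -3.24 to -0.47, -0.69 and -1.19, with 23 probes called. In each of the 6 domains all *rco1*Δ arrays were above all wild type arrays.

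The largest rise of all was at chr11:542503-545248 (11 probes), from -3.10, -3.43 and -3.33 to -0.11, 0.18 and -0.07, a difference of 3.29. It was followed by chr12:310181-312009 with 3.22 and chr13:153547-155624 with 3.17, both of 9 probes and both above 0 on average in *rco1*Δ. Every probe of these 3 domains was called higher. They had far fewer probes than the 6 domains above, and they were not the lowest of the set in wild type.

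Among single probes well above background on the 6 arrays, the largest rise was at chr10:43297-43356, 3 steps inside a domain of 16 probes. It was at -3.18, -4.57 and -3.46 in wild type and at 0.33, -0.12 and 0.12 in *rco1*Δ. The difference was 3.85 ± 0.35 (SE) with an adjusted p of 1.48e-06 in limma.

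The SD between domains was 0.82 in *rco1*Δ and 0.37 in wild type. This is a description, since the rule used these levels and wild type, *rsc1*Δ and *rsc2*Δ, with like levels, weighed most in it, which left no domain above -1.28 in wild type against up to 0.39 in *rco1*Δ. The median SD between arrays of one domain was 0.21 in *rco1*Δ and 0.19 in wild type. The order of the domains was repeated by the *rco1*Δ arrays, whose levels over the 326 domains correlated at 0.90 to 0.96, a description across domains that share the arrays. In *rco1*Δ 30 domains were above the array median, 174 between -1 and 0, 91 between -2 and -1, and 31 under -2.

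**Figure D4:**
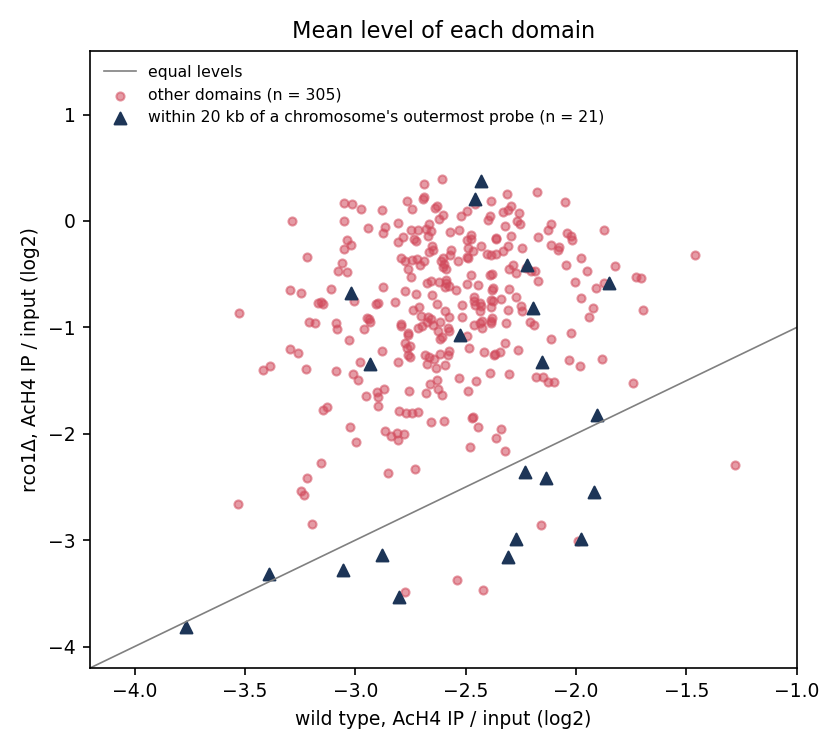
Mean log2 AcH4 IP over input of each of the 326 domains in *rco1*Δ against wild type (means of 3 arrays), with the 21 domains within 20 kb of the first or last probe of a chromosome as triangles and the line of equal levels. The points above the line are the 310 domains with a higher mean in *rco1*Δ, and of the 16 below it 10 are triangles.

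A minority of domains did not rise. The difference of *rco1*Δ from wild type ran from -1.05 to 3.29 over the domains, and it was below 0 in 16, which were singled out after their values had been seen. These 16 were at -3.77 to -1.28 in wild type and at -3.82 to -2.29 in *rco1*Δ. Of their 174 probes, 60 were called lower, against 28.1% of all nuclear probes. This count is a description, since the 16 were chosen by a difference below 0. In 12 of the 16 the *rco1*Δ arrays were all below the wild type arrays, and in the other 4, all near ends of chromosomes 1 and 3, the arrays overlapped.

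Many of these domains lay near chromosome ends. Of the 21 domains within 20 kb of the first or last probe of a chromosome 10 were among the 16, against 6 of the other 305. The median difference was 0.07 in the former and 1.78 in the latter. Probes of the 21 were at -2.46, -2.58 and -2.78 in wild type and at -2.15, -1.93 and -1.97 in *rco1*Δ. Probes of all other domains were at -2.46, -2.69 and -2.78 in wild type and at -0.78, -0.84 and -0.98 in *rco1*Δ. In wild type the ranges of both sets overlapped, and in *rco1*Δ they were apart. Domains near ends minus the others gave 0.04 ± 0.07 in wild type and -1.15 ± 0.20 in *rco1*Δ (SD, n = 3), a difference of -1.19 without overlap. It was -0.76 for domains drawn from the RSC mutants. The 20 kb limit was chosen after the values had been seen. Not all domains near ends stayed low, since 9 of the 21 were higher in *rco1*Δ without overlap.

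The deepest fall was at chr12:450076-460588, 10 probes with a gap of 8333 bp between neighbours. It was at -2.37, -2.43 and -2.47 in wild type and at -3.50, -3.47 and -3.44 in *rco1*Δ, a difference of -1.05. The first domain of chromosome 15, at chr15:195-3812, went from -1.77, -2.0 and -2.16 to -3.16, -3.12 and -2.70, and 4 of its 9 probes were called lower. The domain at chr7:649964-651894 went from -1.33, -1.23 and -1.28 to -1.86, -2.58 and -2.44. In that domain the input was 0.47 lower in *rco1*Δ (difference -0.47), whereas it was higher in 14 of the 16. Of all 326 domains the input was lower in *rco1*Δ in 238, and its part in the falls was not tested. The size of these falls, and in part their sign, depended on the processing. The chromosome 12 difference was -0.36 after normexp (with overlap), 0.20 with loess added to normexp, -1.7 with plain subtraction, -3.16 in the authors' table and -4.01 at a common spread of arrays. After normexp the difference was 0.092 for the chromosome 15 domain and 0.0034 for the chromosome 7 domain, and at a common spread it was -3.61 and -2.94.

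Besides the chromosome 7 and chromosome 12 domains just named, 4 of the 16 lay outside the 20 kb zones, at chr4:435372-437779, chr4:1484462-1486948, chr6:112714-114573 and chr6:199537-201332. Their differences from wild type were -0.71 and -0.83 on chromosome 4 and -0.70 and -1.01 on chromosome 6. The probe with the strongest fall that was well above background on the 6 arrays lay in the last of these, at chr6:199944-200003. It was at -1.44, -1.16 and -1.36 in wild type and at -3.94, -3.33 and -3.13 in *rco1*Δ, a difference of -2.15 ± 0.33 (SE, limma adjusted p = 5.92e-05). This fall is a description, since the probe was a member only through *rco1*Δ. The means of wild type, *rsc1*Δ and *rsc2*Δ there were -1.32, -1.03 and 1.31, which average above the limit of -1.0. Without this probe the run would have had fewer than 8 probes.

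The RSC mutants were compared with wild type to ask whether loss of either bromodomain subunit moved the domains. Few domain probes passed the test. The mean over domain probes was -2.77, -2.77 and -2.76 on the *rsc1*Δ arrays and -2.82, -2.97 and -2.79 on the *rsc2*Δ arrays, against -2.46, -2.68 and -2.78 in wild type. The *rsc1*Δ difference of -0.13 overlapped wild type, and the *rsc2*Δ difference of -0.22 did not. Wild type replicate 1 was the highest of the 9 arrays. Without it the differences were -0.035 and -0.13. Limma called 1 domain probe in *rsc1*Δ, a lower one. Of all nuclear probes it called 0.0482% higher, 0.0603% lower and 0.108% in either direction. An unadjusted p of 0.05 was passed by 292 domain probes, a count without a share of all nuclear probes beside it. In *rsc2*Δ limma called 9 domain probes (0.235%) higher and 21 (0.548%) lower. Of all nuclear probes 0.154% were higher and 0.374% lower, or 0.528% in either direction, so the share in domains was near the background. Without any 1 of the wild type arrays or *rsc2*Δ replicate 1 or 3 the 30 calls became 3 to 6, and without *rsc2*Δ replicate 2 they became 49.

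The sign of the shift in both RSC mutants depended on the scaling. With a common spread of arrays the mean difference became 0.20 for *rsc1*Δ against wild type and 0.09 for *rsc2*Δ, and after normexp 0.04 and 0.03. In runs of 1 to 3 low probes the differences were -0.14 and -0.19, close to those of the domains. Within the slides that held both strains *rsc1*Δ differed from wild type by -0.20 and 0.01, and *rsc2*Δ by -0.25 and -0.19. In domains drawn from strains outside the comparison the differences were -0.11 and -0.17, both with overlap.

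As domain means, 57 domains (17.5%) were lower in *rsc1*Δ without overlap, against 8.14% of genome windows, and 6 (1.84%) were higher, against 16.5%. In *rsc2*Δ 123 (37.7%) were lower, against 16.8%, and 16 (4.91%) higher, against 18.6%. Whether these shares depend on the scaling, as the means do, was not tested. The *rsc1*Δ differences of single domains lay between -0.76 and 0.84 and the *rsc2*Δ differences between -1.02 and 1.12.

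The inward gradients of the RSC mutants overlapped that of wild type. Centre minus edge was -1.14, -1.03 and -0.999 on the *rsc1*Δ arrays and -0.94, -1.18 and -0.96 on those of *rsc2*Δ, against -1.03 to -1.19 in wild type. It differed from wild type by 0.07 for *rsc1*Δ and by 0.09 for *rsc2*Δ. By position the shift ran from -0.16 at the edge to -0.09 at the fourth step in *rsc1*Δ, and from -0.26 to -0.18 in *rsc2*Δ. The arrays were apart from wild type at the edge and the first step in *rsc1*Δ, and from the edge to the third step in *rsc2*Δ, and overlapped further in. Wide minus narrow differed by 0.06 in *rsc1*Δ, without overlap, and by 0.03 in *rsc2*Δ, with overlap. The *rsc1*Δ value lost its separation after normexp (0.04) and was -0.0016 with plain subtraction. At equal average level the domain probes changed by 0.03 more than short runs for *rsc1*Δ, and by 0.02 more for *rsc2*Δ, with overlap in both.

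Some domains stood out in the RSC mutants, and several of them were among those that fell in *rco1*Δ. The domain at chr4:1484462-1486948 was at -2.62, -2.48 and -2.52 in wild type. On the *rsc1*Δ arrays it was at -1.90, -1.68 and -1.51, and on those of *rsc2*Δ at -1.46, -1.75 and -1.49. Its difference of 0.84 was the highest for *rsc1*Δ, and that of 0.98 the second highest for *rsc2*Δ, while *rco1*Δ was at -3.67, -3.24 and -3.20. With plain background subtraction the 2 RSC differences were 0.57 and 0.60, and both mutants overlapped wild type. The chromosome 12 domain with the 8333 bp gap was next in *rsc1*Δ, at -1.76, -1.41 and -1.75, a difference of 0.78. Of the 16 domains that were not higher in *rco1*Δ, 5 were higher than wild type in *rsc1*Δ without overlap, and 9 in *rsc2*Δ. Of genome windows 16.5% were higher without overlap in *rsc1*Δ and 18.6% in *rsc2*Δ. The counts of domains are a description, since the comparisons share the 3 wild type arrays and the rule averaged the 4 strains. A region high in an RSC mutant could thus only be a member where another strain was low.

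The highest *rsc2*Δ difference was at chr6:112714-114573, from -2.13, -2.08 and -2.28 in wild type to -0.94, -1.1 and -1.07, a difference of 1.12, with 2 of 8 probes called. With plain background subtraction it was 0.79 and the arrays overlapped. The probe with the largest called rise in *rsc2*Δ was the one at chr6:199944-200003 already named for its fall in *rco1*Δ. It was at 1.63, 0.92 and 1.37 in *rsc2*Δ, a difference of 2.62 ± 0.33 (SE, limma adjusted p = 0.00153). As said above, this probe was a member only through its low level in *rco1*Δ.

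On the low side, the first domain of chromosome 15 was at -2.77, -2.94 and -2.51 in *rsc1*Δ, a difference of -0.76, and that at chr3:294700-297903 was at -3.11, -2.90 and -2.76 against -2.02, -2.20 and -2.48, a difference of -0.69. Both overlapped wild type after normexp (-0.064 and -0.13) and with plain subtraction (-0.63 and -0.61). In *rsc2*Δ the lowest differences were -1.02 at chr13:126705-128719 and -0.97 at chr12:734962-736838. Both lost their separation from wild type after normexp (-0.20 and -0.26) and with plain subtraction (-0.40 and -0.54). The chromosome 12 domain was at -1.22, -1.64 and -1.52 in wild type and at -2.46, -2.39 and -2.43 in *rsc2*Δ. The probe called in *rsc1*Δ, at chr10:564712-564767 on the edge of a domain of 18 probes, was at -1.78, -1.05 and -1.55 in wild type and at -2.94, -2.83 and -3.27 in *rsc1*Δ. The difference was -1.55 ± 0.29 (SE, limma adjusted p = 0.0475). The same probe had the strongest called fall in *rsc2*Δ, where it was at -4.29, -3.96 and -4.79. That difference was -2.89 ± 0.29 (SE, limma adjusted p = 0.000468), but the probe was not well above background on all 6 arrays. Among called probes well above background on the 6 arrays, that at chr4:638543-638602 fell the most in *rsc2*Δ, by 1.84 on the log2 scale (SE 0.30, limma adjusted p = 0.0112).

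Set directly against each other, *rsc1*Δ and *rsc2*Δ differed by 0.09 in the domain mean, without overlap, but the difference was -0.17 with plain background subtraction, 0.01 after normexp and 0.039 without *rsc2*Δ replicate 2. Same-numbered arrays of these mutants shared a slide and a scan, and the differences within the 3 scans were 0.05, 0.20 and 0.03. Limma called 17 domain probes, 6 higher in *rsc1*Δ (0.157%) and 11 lower (0.287%), against 0.494% and 0.448% of all nuclear probes, and 0.943% in either direction. Of the domains, 66 (20.2%) were higher in *rsc1*Δ without overlap, against 16.6% of windows, and 22 (6.75%) were lower, against 12.1%.

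The lowest differences of *rsc1*Δ from *rsc2*Δ were both on chromosome 6. The domain at chr6:199537-201332 was at -2.25, -2.17 and -2.27 in *rsc1*Δ and at -1.05, -1.43 and -1.08 in *rsc2*Δ, a difference of -1.04, and 3 of its 8 probes were called. Its probe at chr6:200123-200182 was at -2.53, -2.11 and -2.31 in *rsc1*Δ and at 0.16, -0.41 and 0.40 in *rsc2*Δ, a difference of -2.37 ± 0.32 (SE, limma adjusted p = 0.00187). The domain at chr6:112714-114573 followed with -0.92, which overlapped after normexp (-0.35). With plain background subtraction the arrays overlapped in both domains (-0.77 and -0.60).

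The highest differences were 0.90 at chr9:23711-26206 and 0.88 at chr15:25350-31690. The chromosome 9 domain was at -1.61, -2.36 and -2.17 in *rsc1*Δ and at -3.14, -2.81 and -2.88 in *rsc2*Δ. After normexp the *rsc1*Δ and *rsc2*Δ arrays overlapped there (0.33). The chromosome 15 value turned to -0.11 with plain background subtraction. Among called probes well above background on the 6 arrays, the one with the largest difference was that at chr4:638543-638602, with 1.57 ± 0.30 (SE, limma adjusted p = 0.0168).

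**Figure D5:**
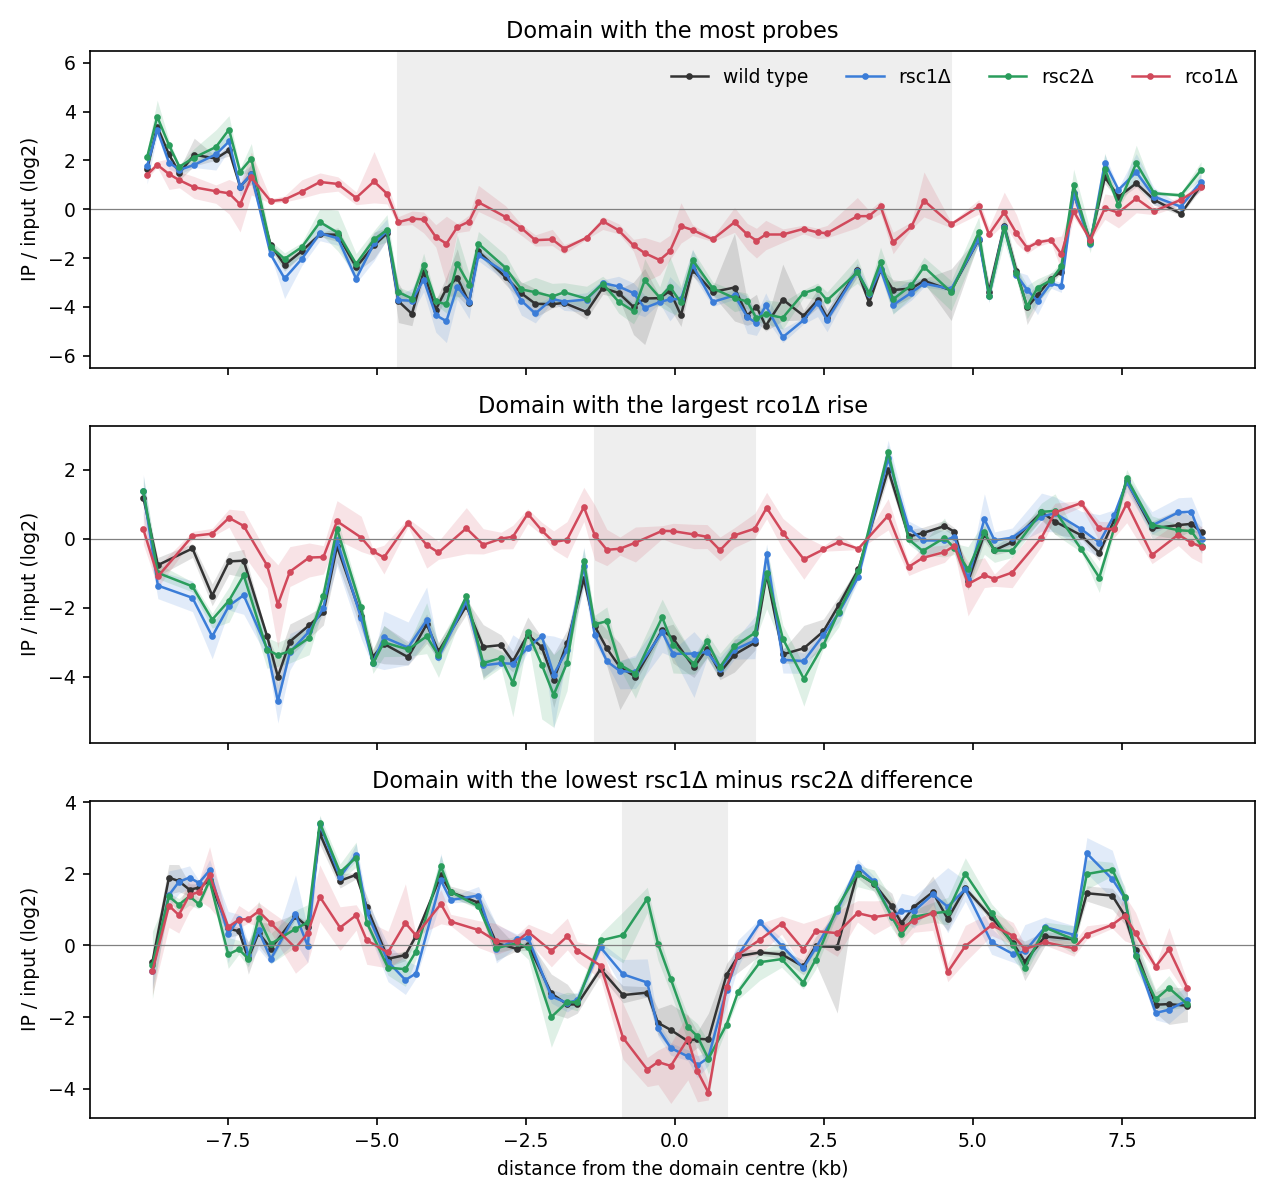
Log2 AcH4 IP over input at each probe against the distance from the domain centre in kb, for the domain with most probes, that with the largest *rco1*Δ rise and that with the lowest *rsc1*Δ minus *rsc2*Δ difference (lines: means of 3 arrays, bands: lowest to highest array, grey: the domain). In the upper panels *rco1*Δ lies above the other strains across the whole domain, by 2.66 and 3.29 on average, and in the lowest panel its mean lies below wild type (difference -1.01) while *rsc2*Δ peaks on one side.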

How the data were processed

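The authors amplified IP and input DNA by double T7 linear amplification, hybridised the labelled amplified RNA to Agilent yeast 4x44K tiling arrays, and deposited Agilent Feature Extraction 10.5.1.1 output per array, whose processed signals are linear intensity values, background-subtracted and dye-normalized by a linear method. They also deposited a table of log2 ratios, normalized with limma, which was used as an alternative. It is a linear function of the background-subtracted ratio on each array, with equal spread on all. Flags of the files (a deposited column scored 0 or 1) removed outlier spots and marked probes well above background.

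The main values were log2(processed Cy5/processed Cy3), centred on each array's median. Probe positions are on sacCer1. Probes were not paired with genes and their sequences were not used here. All 41480 nuclear probes were fitted in limma 3.58.1 (R 4.3.3; lmFit, eBayes, 4 groups, 12 arrays) and the fit was tested on simulated data. For values per array the two-sided exact permutation test of 3 against 3 has a smallest p of 0.1, so overlap of the groups was given. The members, the gradients and the lists were chosen with earlier results of these data known. Named were the 6 domains with most probes, the 3 highest and 3 lowest *rco1*Δ differences, the 2 highest and 2 lowest of the other comparisons, and the called probes with the largest change either way. Alternatives changed the background correction, scale, rule, arrays and blocks, and those with the slide or scan block or on chromosome ends were chosen after seeing the data. The methods name 3 biological repeats without saying how they were separated, so the spread between arrays may be partly technical.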

Additional observations from a re-analysis of the deposited data

Results flagged for a closer look

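The direct comparison of *rsc1*Δ with *rsc2*Δ called 17 domain probes in limma, a test of the difference between these deletions. They are 0.444% of the domain probes, under the 0.943% called over all nuclear probes, so the count says nothing particular to the domains. It became 0 after normexp, with plain background subtraction, after loess, in the authors' table and at common spread. The cause was not tested.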

How the results depend on the processing

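The centre minus edge, long minus short run and chromosome end contrasts of *rco1*Δ against wild type kept their direction and the separation of arrays under every alternative run, but not their size. Centre minus edge (0.86) lay between 0.25 after normexp and 0.99 in domains from other strains, long minus short (0.52) between 0.17 after normexp and 0.77 at common spread, and ends minus other domains (-1.19) between -0.46 after normexp and -2.15 at common spread. The domain mean of *rco1*Δ kept its direction, but the groups overlapped with plain background subtraction (0.88). Dim IP spots limit the low levels, and 3 arrays a side limit every contrast of array means. The cause of the changes below was not tested.

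The rule gave 186 domains at a threshold of -1.5, 124 with 12 or more probes, 118 from the authors' table and 7 after normexp. In *rco1*Δ the calls among domain probes (3080) became 1696 after normexp, 691 with plain subtraction, 999 after loess, 1416 in the authors' table, 640 among probes well above background on all arrays, 1743 at a threshold of -1.5 and 1619 with 12 or more probes. The last 3 test or count fewer probes by construction. No share of all nuclear probes is given for the calls of other fits in this section. The *rsc1*Δ call (1) became 0 after normexp, plain subtraction, loess, in the table, at common spread, at adjusted p under 0.01 and with the replicate block, the scan day block or the slide block, and single arrays left out gave 0 to 2. In *rsc2*Δ 715 domain probes had an unadjusted p under 0.05 as first fitted, with no share of all nuclear probes given. The *rsc2*Δ calls (30) became 0 after normexp, plain subtraction, loess, in the table and at common spread. They became 10 among probes well above background, 15 at -1.5, 15 with 12 or more probes, 13 with the replicate block, 2 with the scan day block, 7 with the slide block and 4 at adjusted p under 0.01, and single arrays left out gave 3 (wild type replicate 2) to 49 (*rsc2*Δ replicate 2). The *rsc1*Δ against *rsc2*Δ calls (17) became 0 under the same 5 settings, 9 among probes well above background, 9 at -1.5, 9 with 12 or more probes, 8 with only the 6 arrays and 3 at adjusted p under 0.01, with 4 to 25 for single arrays left out (4 or 5 without replicate 1 or 3 of either mutant, 10 without wild type replicate 3, 25 without *rco1*Δ replicate 1).

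The labels do not say that replicate numbers pair the samples, and same-numbered deviations correlated at -0.32 to 0.25, but same-numbered *rsc1*Δ and *rsc2*Δ arrays shared a slide and a scan. With the replicate block 3064 domain probes were called in *rco1*Δ and 12 between the RSC mutants.

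Wide minus narrow in *rco1*Δ (0.22) was 0.0542 after normexp, -0.0142 with plain subtraction, -0.11 in the table and -0.0095 at common spread. In *rsc1*Δ (0.06) it was 0.0372 after normexp, 0.0328 in the table and -0.0016 with plain subtraction, and in *rsc2*Δ (0.03) -0.009 with plain subtraction, with -0.0057 to 0.0776 for arrays left out.

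The *rsc1*Δ domain mean (-0.13) was 0.0396 after normexp, 0.0679 in the table and 0.20 at common spread, with -0.20 to -0.0346 for arrays left out. The *rsc2*Δ mean (-0.22) was 0.0295 after normexp, -0.0902 with plain subtraction, 0.0224 in the table, 0.0887 at common spread, -0.14 among probes well above background, -0.23 at -1.5 and -0.17 in domains from other strains, with -0.29 to -0.13 for arrays left out. The *rsc1*Δ minus *rsc2*Δ mean (0.09) was 0.0101 after normexp, -0.17 with plain subtraction, 0.0455 in the table, 0.11 at common spread, 0.0171 among probes well above background and 0.0754 in domains from other strains, with 0.0394 (without *rsc2*Δ replicate 2) to 0.13 for arrays left out.

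Centre minus edge in *rsc1*Δ was -0.081 with plain subtraction and 0.18 at common spread, without overlap there, and 0.0324 to 0.11 for arrays left out. In *rsc2*Δ arrays left out gave 0.0486 to 0.17. Long minus short in *rsc1*Δ was -0.0139 in domains from other strains and -0.0022 to 0.076 for arrays left out. In *rsc2*Δ it was -0.0132 with plain subtraction, -0.0451 in domains from other strains and -0.0411 to 0.0874 for arrays left out.

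The domain input of *rco1*Δ (-0.25) was 0.0586 among probes well above background, with -0.31 to -0.12 for arrays left out. That of *rsc1*Δ was 0.0315 with plain subtraction, without overlap, and 0.0075 to 0.0665 for arrays left out, and that of *rsc2*Δ -0.013 to 0.046. Of single domains, the *rco1*Δ falls on chromosomes 7 and 15 became 0.0034 and 0.0922 after normexp, that on chromosome 12 became 0.20 with loess after normexp, the chromosome 15 *rsc1*Δ value became 0.0305 with loess after normexp and the chromosome 15 *rsc1*Δ minus *rsc2*Δ value -0.11 with plain subtraction.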
